A study of Homo sapiens with 6 samples.

Results

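The BCL2 family sets the threshold at which mitochondria commit a cell to apoptosis, and 10 of its genes were examined here in melanoma cells depleted of ERK3. The members were taken by gene symbol from the platform annotation: MCL1, BCL2, BCL2L1, BCL2L2, BCL2A1, BAX, BAK1, BID, BAD and BCL2L11. All 10 were measured, among 17687 genes compared. Each was read by 1 probe set, the set of short probes whose signals are summarised into 1 value per gene and array, so the rule of taking the brightest probe set left no choice to make.

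Survival proteins of the family, among them MCL1, BCL2 itself and BCL-XL, hold the mitochondrial outer membrane closed by binding their pro-death relatives. BAX and BAK1 are the effectors, which assemble into pores and release cytochrome c. The BH3-only proteins, such as BIM (gene BCL2L11), BID and BAD, carry death signals to the others. In melanoma, MCL1 and BCL2A1 are known survival factors. The pathway of the kinases ERK1 and ERK2 is known to restrain BIM and to stabilise the MCL1 protein.

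The cells were A375, an established human melanoma line with an activating BRAF mutation. Both groups were transfected with a commercial siRNA and harvested for total RNA 3 days later: siCon received a negative control siRNA and siERK3 an siRNA against ERK3, an atypical MAP kinase encoded by MAPK6. Each group had 3 Affymetrix Clariom S arrays, and the values are log2 signals. The sources used here give neither the siRNA sequences nor whether siERK3 was 1 sequence, and they leave unsaid whether the replicates came from separate cultures. The p-values therefore cover array-to-array spread alone, and that spread may be technical.

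MAPK6 was at 13.45, 13.55 and 13.62 in siCon and at 10.54, 10.32 and 10.67 in siERK3, a log2 change of -3.03 (SE 0.14; adjusted p = 0.000133, limma). The background level was set at the 95th percentile of the 612 negative control probe sets of each array, 7.32 to 7.56, and between 45.6% and 47.6% of genes exceeded it. Along the second principal component, siCon 2 and siERK3 3 stood apart from the other arrays, at -26.5 and -15.2 against 4.4 to 21.7. Of 11 melanocytic markers measured, 6 lay above background on all 6 arrays, SOX10, MITF, S100B, S100A1, EDNRB and ERBB3, while PMEL, MLANA, TYR, TYRP1 and PAX3 lay below it on all 6. Markers of other cell types were mostly at background: 3 of 5 leukocyte markers including PTPRC, all 4 keratinocyte and all 3 endothelial markers were below it on every array. The exceptions were CD68, LYZ, LUM and COL1A2, above it on all 6, and PDGFRB, above it on the 3 siERK3 arrays alone. The summed log2 signal ran from 35.9 to 36.7 in siCon and from 34.4 to 35.4 in siERK3 for the 5 leukocyte markers. For the 5 fibroblast markers it ran from 35.6 to 36.8 and from 35.9 to 36.9. Among these, LUM fell, with a log2 change of -0.83, while the mean of PDGFRB was 0.75 higher, short of the adjusted threshold. LYZ and CD68, the leukocyte markers above background, had log2 changes of -0.85 and -0.47, also short of it. The part of the markers in the values below was not tested.

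None of the 10 members passed limma's test adjusted over all genes at 0.05, a level that 169 of 17687 genes (0.956%) passed, 0.447% of all genes higher and 0.509% lower in siERK3. At an unadjusted p under 0.05 there were 2 members, MCL1 lower and BAX higher in siERK3, where 13.5% of all genes reached that level, 6.5% lower and 6.98% higher. The 3 siERK3 values lay clear of the 3 siCon values for 3 members, MCL1 below and BAX and BID above, against 19.8% of all genes, 9.7% below and 10.1% above. With so few members these counts stand near the background of the comparison. The median log2 change was -0.05 over the 10 members and -0.0014 over all genes, and 6 of the 10 had a lower mean in siERK3, against 50.2% of all genes. What follows is therefore a description of single genes, with the interval each allows. An array value shows RNA per sample, and less RNA per cell cannot be told apart from fewer cells that express the gene.

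**Figure D1:**
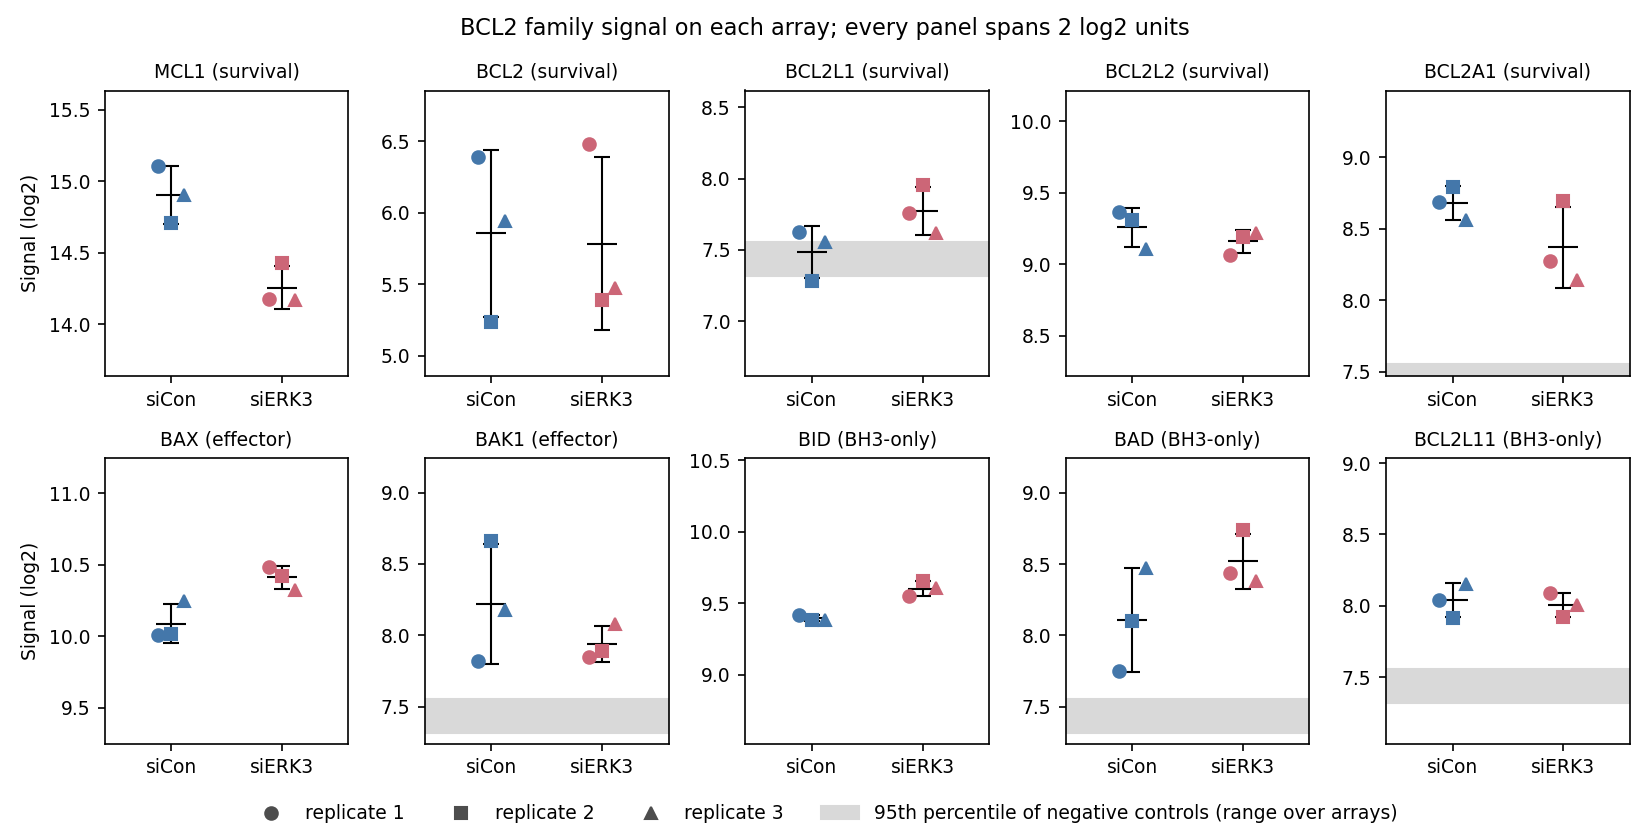
Log2 signal of the 10 BCL2 family genes on each of the 3 siCon (blue) and 3 siERK3 (red) arrays; symbols mark the replicate, the horizontal tick and bar the mean ± SD, and the grey band the background level. The groups are clear of each other for MCL1 (lower in siERK3), BAX and BID (higher), and BCL2 lies below the band on all 6 arrays.

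Among the survival genes, MCL1 encodes a short-lived protein whose level depends on continuous synthesis. Its signal was 15.11, 14.70 and 14.90 in siCon and 14.17, 14.43 and 14.17 in siERK3. Every siERK3 array lay below every siCon array, the nearest pair being siCon 2 and siERK3 2. The means were 14.90 ± 0.20 and 14.26 ± 0.15 (SD, n = 3 each), a log2 change of -0.65 (SE 0.15; 95% interval -0.999 to -0.297), or 1.57-fold lower. MCL1 ranked 416 by p among all genes, and 3.04% of genes had a larger absolute change. Its adjusted p was 0.105 in limma.

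Whether MCL1 counted as changed depended on the setting of the test. With a mean-variance trend and robust moderation its adjusted p was 0.000752 in limma, and among genes above the median of mean level it was 0.0237, so under these settings it fell. Both settings called more genes in total, 722 and 581 against 169 in the main fit, the 581 from fewer genes tested. In the other 15 alternatives, each array left out among them, its adjusted p ranged from 0.0569 to 0.294, and the log2 change lay between -0.75 and -0.55 throughout. The direction was the same in all 17, though many could not alter it. Some changed only the variance or the set of genes and kept the same log2 change. As every siERK3 array lay below every siCon array, leaving arrays out could not reverse it either. One probe set does not separate the long, protective MCL1 isoform from the short one, which promotes death.

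BCL2L1 encodes BCL-XL, the survival protein that most often stands in for MCL1. Its signal was 7.63, 7.28 and 7.56 in siCon and 7.76, 7.95 and 7.62 in siERK3. The groups overlapped narrowly, siERK3 3 lying just under siCon 1. The log2 change was 0.29 (SE 0.15; 95% interval -0.06 to 0.64; adjusted p = 0.48, limma). The gene was near the detection limit, above background on 2 of 3 siCon arrays and on all 3 siERK3 arrays, and the probe set does not separate the long from the short isoform, which have opposite effects on survival.

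BCL2A1, also called BFL1, is a survival protein that melanocytic cells make under control of MITF and that other cells induce through NF-kB. Its signal was 8.69, 8.79 and 8.56 in siCon and 8.27, 8.69 and 8.15 in siERK3. Arrays siERK3 1 and siERK3 3 lay below all of siCon, and siERK3 2 lay among them. The log2 change was -0.31 (SE 0.17; 95% interval -0.70 to 0.08; adjusted p = 0.491, limma), and it ranged from -0.47 to -0.14 over the alternatives. MITF was at 9.66, 10.01 and 9.63 in siCon and at 9.66, 9.63 and 9.50 in siERK3, a log2 change of -0.17 (SE 0.15). For the NF-kB subunits the log2 changes were -0.22 for NFKB1 and 0.04 for RELA. Groups overlapped for MITF and RELA, and also for NFKB1, whose siCon 2 value lay below all 3 siERK3 values.

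BCL2L2 (BCL-W), a further survival protein, was at 9.37, 9.31 and 9.10 in siCon and at 9.07, 9.19 and 9.22 in siERK3. The values interleave, and the log2 change of -0.10 had a 95% interval of -0.41 to 0.21, so a change beyond 0.754-fold or 1.15-fold lies outside it. The read-through gene BCL2L2-PABPN1 overlaps the whole locus and has its own probe set, with a log2 change of 0.04 (SE 0.21). Whether the probes of the pair separate the transcripts was not tested.

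BCL2, the founding member, lay below background on all 6 arrays. Its signal was 6.39, 5.23 and 5.94 in siCon and 6.48, 5.39 and 5.47 in siERK3. The spread within each group, 0.58 and 0.61 (SD, n = 3), was the widest among the 10 members, and no fold is given at this level.

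**Figure D2:**
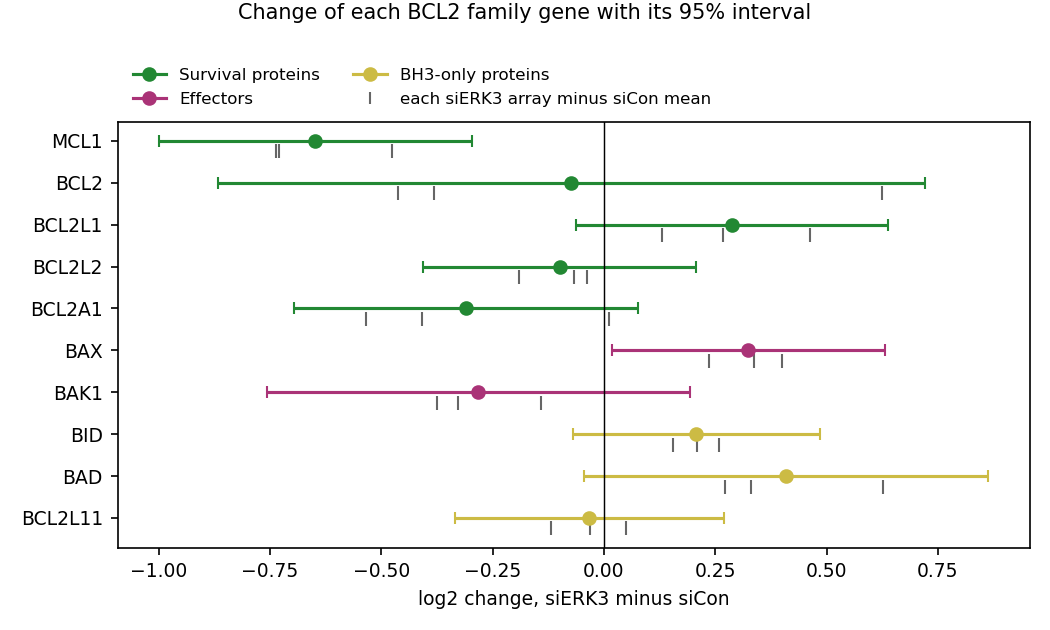
Log2 change (siERK3 minus siCon) of each member with the 95% interval of the moderated fit; grey ticks show each siERK3 array minus the siCon mean, and colours the role. Only the intervals of MCL1 (-0.999 to -0.297) and BAX (0.02 to 0.63) leave out 0, before adjustment over all genes.

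The pore-forming effectors had means on opposite sides. BAX, which moves from the cytosol to mitochondria when activated, was at 10.01, 10.01 and 10.24 in siCon and at 10.49, 10.42 and 10.32 in siERK3. All 3 siERK3 arrays lay above siCon, the nearest pair being siCon 3 and siERK3 3. The log2 change was 0.32 (SE 0.13; 95% interval 0.02 to 0.63), or 1.25-fold higher, with an unadjusted p of 0.0405 and an adjusted p of 0.345 in limma. Over the alternatives it lay between 0.28 and 0.40, with adjusted p from 0.134 to 0.578. Its unadjusted p was 0.05 or higher in 7 of the 17 alternatives, up to 0.112 without siERK3 1; the others were the fits without siCon 1, siCon 2 or siERK3 2, without siCon 2 and siERK3 3 together, with array weights and with the replicate block. The members at that level therefore varied with the setting: MCL1 was at it in all 17, BAK1 without siCon 1, BCL2A1 without siERK3 2, and BAD without siCon 3 and with the variance trend.

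BAK1, which resides in the outer membrane and is held by MCL1 and BCL-XL, was at 7.82, 8.66 and 8.18 in siCon and at 7.85, 7.89 and 8.08 in siERK3. The siCon arrays were the more scattered (SD 0.42 against 0.12, n = 3 each), and siCon 1 lay below all of siERK3. The log2 change of -0.28 (SE 0.21; adjusted p = 0.631, limma) moved with single siCon arrays. It was -0.06 without siCon 2 and -0.48 without siCon 1.

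The BAX window is shown because its upstream sequence stands apart from the other members' in 1 motif, and the BCL2A1 window because of that gene's known control by MITF, which binds E-boxes. The RefSeq promoter table (GRCh38.p14) held windows for 8 of the 10 members and none for MCL1 and BCL2L2. The 250 bases upstream of each start were searched on both strands for the E-box forms CACGTG, a palindrome, and CATGTG, which do not overlap each other here. Capitals mark CACGTG in BAX (chr19:48954625-48954874, plus strand) and CATGTG in BCL2A1 (chr15:79971197-79971446, minus strand), both written 5′ to 3′ along the gene.
BAX: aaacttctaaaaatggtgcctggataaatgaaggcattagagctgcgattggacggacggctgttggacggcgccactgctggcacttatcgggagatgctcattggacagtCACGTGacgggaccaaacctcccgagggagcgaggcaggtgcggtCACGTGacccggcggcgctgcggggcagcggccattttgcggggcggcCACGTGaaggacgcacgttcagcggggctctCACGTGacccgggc
BCL2A1: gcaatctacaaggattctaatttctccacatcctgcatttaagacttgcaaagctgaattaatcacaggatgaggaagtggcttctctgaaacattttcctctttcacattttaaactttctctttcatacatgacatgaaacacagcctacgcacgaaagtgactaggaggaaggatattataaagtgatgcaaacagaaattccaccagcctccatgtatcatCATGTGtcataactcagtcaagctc
BAX held 4 copies of CACGTG, starting 138, 93, 45 and 14 bases before the transcription start. Of 35116 windows of this length in the table, 6.34% held the motif and 5 held 4 or more copies. The cut of 4 is the count of BAX itself, whose window is among the 5, so its rarity follows in part from the choice. BCL2A1 held 1 CATGTG, starting 25 bases before the start, a motif found in 9.42% of windows. Among the other members, 2 of the 5 BID windows, which overlap, held the same single CACGTG, and another held 1 CATGTG. The windows of BCL2, BCL2L1, BAK1, BAD and BCL2L11 held neither. A match describes the letters of the window, and occupancy was not measured.

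Among the BH3-only genes, BID encodes the protein that caspase-8 cleaves to link death receptors to mitochondria. Its signal was 9.42, 9.38 and 9.38 in siCon and 9.55, 9.65 and 9.61 in siERK3. The arrays of each group lay close together (SD 0.02 and 0.05, n = 3 each), and the groups did not overlap. The log2 change was small, 0.21 (SE 0.12; 95% interval -0.07 to 0.49; adjusted p = 0.528, limma), and its SE, for which limma also draws on the spread of all genes, is larger than this gene's own spread alone would give.

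BAD binds BCL-XL and BCL2 unless phosphorylated and held by 14-3-3 proteins. Its signal was 7.75, 8.10 and 8.47 in siCon and 8.44, 8.73 and 8.38 in siERK3. The mean was 0.41 higher in siERK3 on the log2 scale (SE 0.20; 95% interval -0.04 to 0.86; adjusted p = 0.427, limma). The siCon arrays spanned the wider range, siCon 3 lay above 2 of the siERK3 arrays, and the change was 0.23 without siCon 1 and 0.59 without siCon 3. GPR137, which overlaps BAD in the RefSeq annotation, had a log2 change of 0.15 (SE 0.21).

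BCL2L11 encodes BIM and is the member best known for control by ERK1 and ERK2, kinases other than the ERK3 depleted here. Its signal was 8.04, 7.92 and 8.15 in siCon and 8.09, 7.92 and 8.01 in siERK3. The groups coincide. The log2 change was -0.03 (SE 0.13), and its 95% interval of -0.34 to 0.27 corresponds to 0.793-fold to 1.20-fold. Changes of BIM splice forms or of the protein are outside what this probe set reads.

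**Figure D3:**
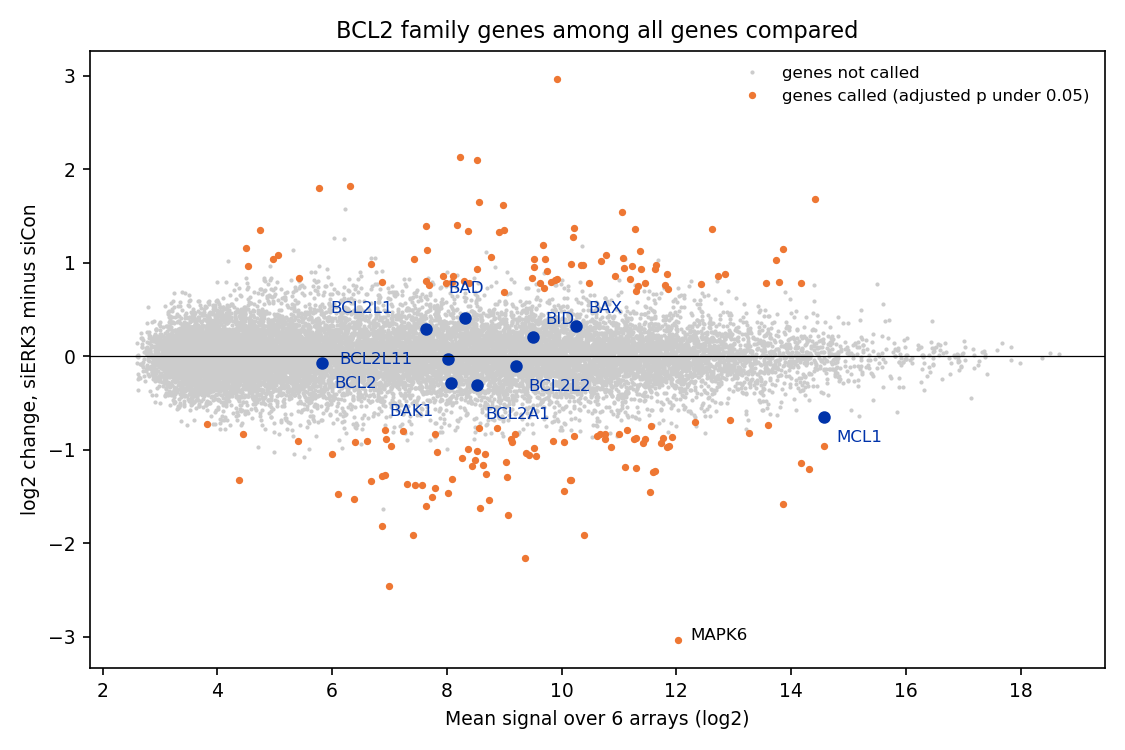
Log2 change (siERK3 minus siCon) against mean log2 signal over the 6 arrays for 17687 genes; orange points are the 169 genes past the adjusted threshold, blue points the 10 BCL2 family genes. The lowest of the 10 members is MCL1, at -0.65, and the highest BAD, at 0.41; none is past the threshold.

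Ratios of 2 members on the same array cancel any shift that the 2 genes share there, whether or not all genes share it. They are given for 3 pairs as a description with no test. The pairs were chosen after the values were seen, from members whose means differed between the groups in opposite directions, so a gap between the groups follows from the choice. Relative to its siCon mean, the log2 ratio of MCL1 to BCL2L1 was 0.06, 0.01 and -0.07 on the siCon arrays and -0.9985, -0.94 and -0.87 on the siERK3 arrays. The spread was 0.07 (SD, n = 3) in both groups, narrower than that of either gene alone. The ratio of MCL1 to BAX was 0.28, -0.12 and -0.16 in siCon and -1.13, -0.81 and -0.97 in siERK3. For BAX over BAK1 the values were 0.32, -0.52 and 0.20 in siCon and 0.77, 0.66 and 0.38 in siERK3, with the lowest siERK3 array close to the highest siCon array. BCL2L1 was below background on siCon 2, and the lowest BAX over BAK1 value came from that array, where BAK1 was highest.

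**Figure D4:**
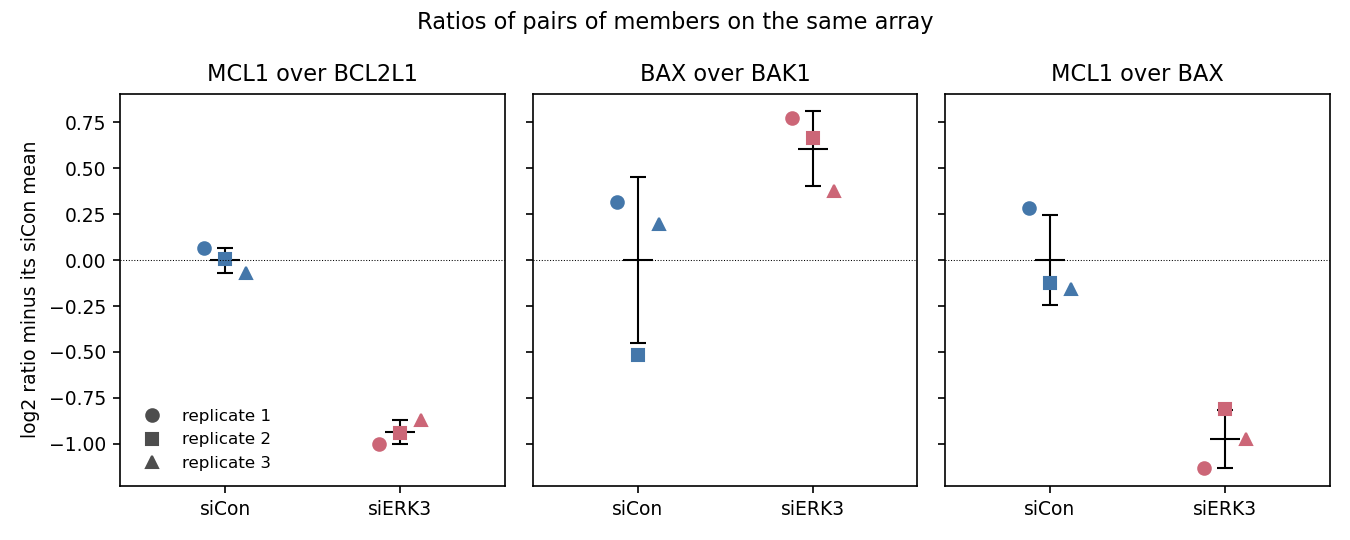
Log2 ratio of 2 members on the same array, minus its siCon mean, for 3 siCon (blue) and 3 siERK3 (red) arrays; ticks and bars are the mean ± SD. MCL1 over BCL2L1 lies between -0.9985 and -0.87 on the siERK3 arrays and between -0.07 and 0.06 on the siCon arrays.

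The genes whose course over the 6 arrays was most like that of MCL1 were sought among 7720 genes above background on every array, by the root mean square difference of values centred on each gene's mean. The closest 5 were KYNU, an enzyme of tryptophan breakdown (0.0554), SDCCAG8 (0.0667), VPS36, a subunit of an endosomal sorting complex (0.0699), HTATIP2 (0.0718) and ITGB8, an integrin subunit (0.0784), against a median of 0.376. KYNU was at 13.00, 12.57 and 12.86 in siCon and at 12.12, 12.41 and 12.20 in siERK3, with its lowest siCon value on siCon 2 and its highest siERK3 value on siERK3 2, as for MCL1. Their log2 changes lay between -0.71 and -0.56, and none passed the adjusted threshold (adjusted p 0.0531 to 0.16, limma). The 5 were selected on these same 6 values, so their fall beside MCL1 and the course of KYNU follow from the choice.

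The other genes of the mitochondrial pathway were described by 6 lists. Of 14 further BCL2 relatives and BH3-only genes listed, 13 were measured and none passed limma's adjusted test. None reached an unadjusted p under 0.05 either, a level that 13.5% of all genes reached. Their median log2 change was -0.16, and 11 of the 13 had a lower mean in siERK3, against 50.2% of all genes. On all 6 arrays, 7 of the 13 lay below background. PMAIP1 encodes NOXA, the BH3-only partner of MCL1. It was at 7.40, 7.65 and 7.47 in siCon and at 7.32, 7.04 and 7.36 in siERK3, a log2 change of -0.27 (SE 0.15), and it exceeded background on 2 siCon arrays and 1 siERK3 array. BCL2L13 had a log2 change of -0.23 (SE 0.13). BMF, a BH3-only gene, lay below background throughout.

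Downstream of the mitochondria, 12 of 15 listed genes of the apoptosome, the caspases and their inhibitors were measured and none passed limma's adjusted test. At an unadjusted p under 0.05, 2 were lower, against 6.5% of all genes, and the median log2 change was 0.08. APAF1, the scaffold that binds cytochrome c, was at 9.57, 9.10 and 9.53 in siCon and at 8.55, 8.93 and 8.95 in siERK3, a log2 change of -0.59 (SE 0.18), with an adjusted p of 0.201 in limma. For BIRC5, which encodes survivin, the log2 change was -0.57 (SE 0.15) with an adjusted p of 0.14 in limma. For both genes the groups did not overlap, with siERK3 lower, as for 9.7% of all genes. BIRC6, the third by p, had a log2 change of 0.23 (SE 0.17), and XIAP, the direct caspase inhibitor, of -0.10 (SE 0.13). The caspases measured in this list were CASP6 and CASP9. CASP6 had a log2 change of 0.01 (SE 0.15), and CASP9 lay below background on every array.

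The next list held 14 genes for outer membrane channels, import receptors and fission or fusion proteins that BAX, BAK1 and BID meet at mitochondria. All lay above background on all 6 arrays. None passed limma's adjusted test, and 1 was lower at an unadjusted p under 0.05, against 6.5% of all genes. Their median log2 change was -0.0076, with a range of -0.35 for TOMM70, an import receptor, to 0.28 for TOMM40, the import channel, while TOMM22, a docking site of BAX, had 0.20 (SE 0.15). VDAC2, which holds BAK1 in the membrane, had a log2 change of -0.04 (SE 0.13), and MTCH2, the receptor of BID, of 0.02 (SE 0.13).

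Among 11 genes that set the turnover of the MCL1 protein, none passed limma's adjusted test, and the median log2 change was 0.03. At an unadjusted p under 0.05 there was 1 in each direction, against 6.98% of all genes higher and 6.5% lower. The ubiquitin ligase subunits BTRC and FBXW7, which both mark MCL1 for destruction, had log2 changes of 0.41 (SE 0.14) and -0.53 (SE 0.21), with FBXW7 above background on 2 siCon and 0 siERK3 arrays. GSK3A, a kinase that primes MCL1 for this step, had 0.19 (SE 0.13).

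Kinases that phosphorylate BAD or BIM, together with the 14-3-3 proteins that hold phosphorylated BAD, gave the gene that passed among the 6 lists. Of 19 measured, YWHAH, a 14-3-3 protein, rose and 18 did not pass, where 0.447% of all genes passed as higher. At an unadjusted p under 0.05, 2 were higher and 1 was lower, against 6.98% and 6.5% of all genes. The groups did not overlap for 5 genes with siERK3 higher and 5 with siERK3 lower, against 10.1% and 9.7% of all genes. The list was chosen with earlier results of these data known, so that it holds a gene that passed may follow from the choice. YWHAH was at 10.39, 10.28 and 10.19 in siCon and at 12.07, 11.73 and 11.70 in siERK3, 2.91-fold higher (adjusted p = 0.00456, limma). The median log2 change of the list was 0.0093. The mean of MAPK3, which encodes ERK1, was 0.75 higher on the log2 scale (SE 0.15), with an adjusted p of 0.0644 in limma. PIM3, a BAD kinase, had a change of -0.47 (SE 0.19).

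Of 14 measured transcription regulators of the family, none passed limma's adjusted test, 3 reached an unadjusted p under 0.05, STAT3 higher and DDIT3 and ATF4 lower (13.5% of all genes did), and the median log2 change was -0.04. The log2 change was 0.65 (SE 0.17) for STAT3, an activator of MCL1 and BCL2L1, and -0.40 (SE 0.13) for ATF4, of the stress response. Their adjusted p was 0.128 and 0.238 in limma. Groups did not overlap for either gene. In the list this held for 3 genes with siERK3 higher and 2 with siERK3 lower, against 10.1% and 9.7% of all genes. DDIT3 (CHOP), an inducer of BIM under stress, was below background in both groups, at 7.11 and 6.50. FOXO3, the activator of BIM and NOXA, had 0.27 (SE 0.19).

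**Figure D5:**
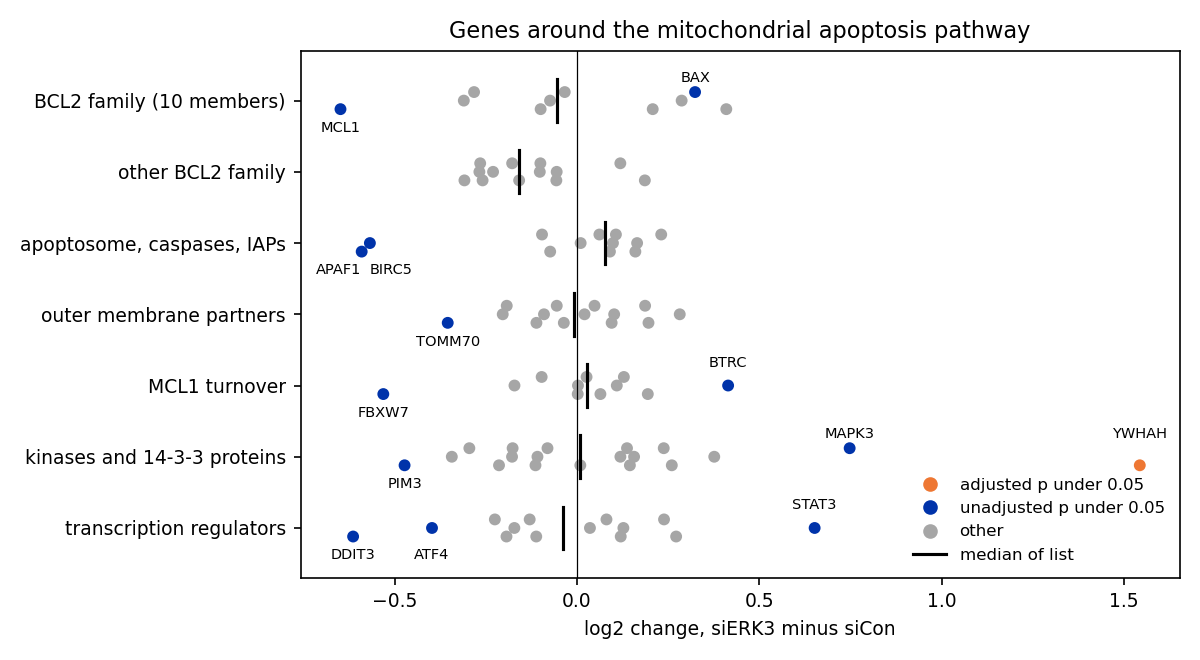
Log2 change (siERK3 minus siCon) of each measured gene in the 10-member set and the 6 lists; black bars are medians, blue points have an unadjusted p under 0.05 and the orange point, YWHAH, passed the adjusted threshold. The list medians lie between -0.16 and 0.08, and single genes, MCL1 among them, lie away from them on either side.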

How the data were processed

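The 6 arrays (3 siCon, 3 siERK3) were analysed from the values the authors deposited, 1 log2 signal for each of 24351 probe sets and array. That the scale is log2 follows from their range. The sources used here do not name the software or normalization behind them; with medians of 7.06 to 7.10 the arrays had been brought to a common level. Some values (1.46% to 1.61% an array) lie above 16, more than a 16-bit scanner can give, so zero point and any stretch are unknown, and a stretch would alter the folds. The platform annotation gave 1 symbol for 17709 probe sets, several for 0 and none for the other 6642, controls included; 20 genes had more than 1 probe set and the brightest was taken. No filter or pseudocount was used.

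The comparison used limma 3.58.1 and R 4.3.3, fitting group alone (lmFit, eBayes, prior of 4.77 degrees of freedom), with Benjamini-Hochberg adjustment over 17687 genes. The number of arrays limits the precision, with a median SE of 0.165. MAPK6 alone was also given an exact two-sided permutation test, p = 0.1, the smallest that 3 against 3 arrays allow. Code was tested on simulated data. The members and the lists were chosen with earlier results of these data known, so no p was adjusted over them. Named were the 10 members, MAPK6 and the 5 genes most like the member with the smallest p. In each of the 6 pathway lists, the 3 genes with the smallest p and every gene past the threshold were named. BCL2L2-PABPN1, GPR137, MITF, NFKB1, RELA, XIAP, CASP6, CASP9, VDAC2, MTCH2 and FOXO3 were named after their values were seen, and so were cell type markers. Alternatives were other normalizations, filters, probe set rules, variance models, array weights, a replicate block and each array left out. Promoter windows came from RefSeq.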

Additional observations from a re-analysis of the deposited data

How the results depend on the processing

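Of 169 values of single members under the alternatives, 162 kept direction and side of the threshold, 2 passed it, both MCL1 as given above, and 5 turned sign, all with 1 array left out. Some alternatives alter only the variance or the set of genes, so the direction could not change there. With 1 array left out the log2 change of BCL2 ranged from -0.42 to 0.19 and that of BCL2L11 from -0.094 to 0.025; BCL2 is below background on all 6 arrays, so its values carry no direction. The number of members called was 1 instead of 0 (MCL1) among genes above the median of mean level and with the mean-variance trend and robust moderation, and 0 under each other alternative. The number of all genes called, 169, was 365 among genes above the 30th percentile and 581 above the median of mean level, 722 with the trend and robust moderation, 70 with all probe sets tested and 23 to 60 with 1 array left out. Without siCon 2 and siERK3 3 together, an alternative added after seeing the data, it was 7, with 0 members. With the replicate number as a block, 33 genes and 0 members were called (MCL1 adjusted p = 0.226, limma). Deviations of same-numbered arrays from their group means correlated at 0.0492, -0.124 and -0.0386 across genes. Deviations from a mean of 3 arrays are tied to each other, so these values do not settle whether the numbers pair the arrays. MAPK6 passed under every alternative. The cause of the other differences was not tested. Signal near background limits BCL2, below it on all arrays, and BCL2L1.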
